A study of Mus musculus with 4 samples.

Results

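Tetraspanins are small proteins that cross the membrane several times and gather integrins, proteases and other partners into patches of the cell surface and of endosomes. In the macrophage lineage they are known for their part in cell fusion, adhesion and the making of extracellular vesicles, and osteoclasts form by the fusion of macrophage-like precursors. The genes described here are those whose symbol is Tspan with a number, or Cd9, Cd37, Cd53, Cd63, Cd81, Cd82 or Cd151, with at least 40 counts summed over the 4 libraries. They were chosen by name and by this count, and the family was picked with earlier results of these data known. The table of 23390 gene models lists 27 such symbols, and 23 reached the count. Outside it were Tspan18 (39 counts), Tspan11 (35), Tspan15 (13) and Tspan1 (4), and the members just inside were Tspan12 (71 counts) and Tspan8 (116).

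The libraries came from osteoclast cultures of wild-type C57BL/6J mice. Bone marrow macrophages were grown with L929 cell supernatant as a source of M-CSF and driven towards osteoclasts with 40 ng/ml RANKL. All 4 cultures had these factors, and RNA was taken at day 4. For the time under the compound, the design text gives 3 days and the protocol of the labels 4. In 2 cultures the solvent DMSO was added, and in the other 2 it was 10 µM BMS-582949, an inhibitor of the kinase p38α. Groups follow the treatment label, because the sample titles spell the compound with other digits and the treatment protocol names it for all 4 samples. Nothing in the labels tells whether a group's 2 libraries are from different mice or dishes, and the p-values therefore reflect only how far these samples scatter, possibly for technical reasons.

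Total counts per library ran from 35331889 to 39255925. The label osteoclast was checked on 7 markers, Acp5, Ctsk, Mmp9, Calcr, Oscar, Itgb3 and Car2, whose summed level was 95370 and 99550 CPM (counts scaled to a common library size) with DMSO and 11550 and 11700 CPM with BMS-582949. All 7 were called lower, as Acp5 (log2 fold change -3.21), Ctsk (-2.96) and Mmp9 (-3.09) show. The sum of 10 macrophage markers was 10440 and 10650 CPM with DMSO and 10940 and 11730 CPM with the inhibitor. Of the 10, 5 were called higher and 2 lower (median log2 fold change 0.70). Among all 13214 tested genes, 30.5% were called higher and 29.7% lower. The sum hides changes in both directions among its most abundant genes, since Lyz2 rose (0.82) while Cd68 (-1.35) and Csf1r (-1.16) fell. Cx3cr1 (4.59), Mrc1 (1.57), Mertk (1.35) and Adgre1 (1.19) also rose. These are whole cultures, so fewer cells of a type and less RNA per cell cannot be told apart in any value below.

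With BMS-582949 the tetraspanins did not move as one. All 23 passed the filter on low counts, and 12 were called lower, 4 higher and 7 neither (edgeR's quasi-likelihood test with p-values adjusted over all genes by Benjamini-Hochberg, called under 0.05). That is 69.6% of members called, where 60.2% of all 13214 tested genes were. Of all genes 30.5% were called higher and 29.7% lower. The members' median log2 fold change was -0.50, against 0.03 for all genes. At least a 2-fold change was called for 7 members, 4 of them lower and 3 higher, against 21.3% of all genes. The libraries of the groups did not overlap for 19 members, and for 80.2% of all genes.

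CPM here is scaled by TMM, which assumes that most genes do not change. The TMM factors were 0.880 and 0.872 for the DMSO libraries and 1.15 and 1.13 for the BMS-582949 libraries. With scaling by library size only, the median of all genes moved to 0.41, the members' median to -0.13, and 8 members were called lower and 6 higher. Small falls below are therefore falls relative to TMM. Cd63, Tspan7, Tspan10, Tspan5, Tspan17, Tspan14, Cd82 and Cd37 were called lower and Cd81, Tspan32, Tspan3 and Tspan2 higher under both scalings.

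**Figure D1:**
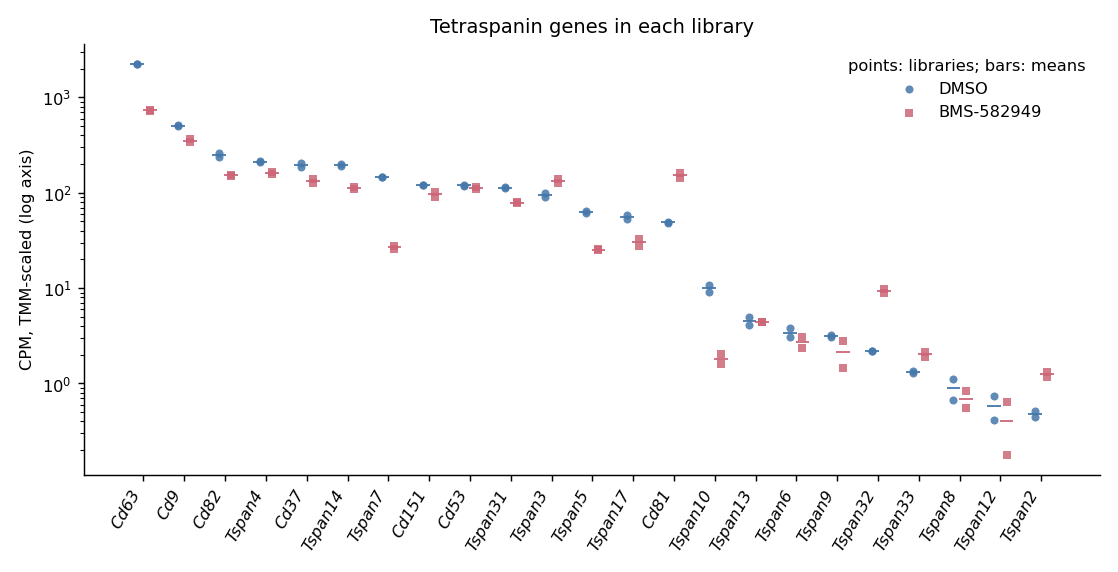
CPM (TMM-scaled, log axis) of the 23 tetraspanin genes, ordered by the DMSO mean; circles are DMSO libraries, squares BMS-582949 libraries and bars group means. Cd63 stood highest in all 4 libraries, Tspan7 and Tspan10 lay far lower with the inhibitor, and Cd81 and Tspan32 far higher.

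Cd63 (ENSMUSG00000025351, chromosome 10, 128900989 to 128912822 on GRCm38), a tetraspanin of late endosomes, lysosomes and exosomes, was the most abundant member. Its level was 2265 and 2260 CPM in the DMSO libraries and 713 and 746 CPM in the BMS-582949 libraries. Both inhibitor libraries lay at about the same level, far below both controls. The log2 fold change was -1.63 ± 0.07 (SE, edgeR adjusted p = 1.2e-09), which is 3.10-fold lower. Cd63 counts made up 51.7% of all tetraspanin counts in DMSO replicate 1 (exact 95% interval 51.5% to 52.0%) and 50.8% in DMSO replicate 2. With the inhibitor the share was 31.6% (31.3% to 31.9%) and 31.2%. These intervals cover counting error only.

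Tspan7 (ENSMUSG00000058254, chromosome X, 10485158 to 10596605) has been studied in osteoclasts for the arrangement of the actin cytoskeleton. It went from 145 and 146 CPM to 25.9 and 27.8 CPM, which is 5.42-fold lower (log2 fold change -2.44 ± 0.07 SE, edgeR adjusted p = 8.3e-11). The replicates of each group were close together and the groups far apart. Tspan10 (ENSMUSG00000039691, chromosome 11, 120442644 to 120446950), also called oculospanin and known from pigmented cells of the eye, was much scarcer. It had 284 and 344 counts with DMSO and 72 and 86 counts with BMS-582949, or 9.14 and 10.9 CPM against 1.59 and 2.03 CPM. Its log2 fold change was -2.47 ± 0.21 (SE, edgeR adjusted p = 5.3e-07).

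Cd81 (ENSMUSG00000037706, chromosome 7, 143052739 to 143067934) moved the other way. Together with its close relative Cd9 it is known for roles in membrane fusion, and mice lacking both form multinucleated giant cells. Cd81 stood at 49.7 and 48.2 CPM with DMSO and at 145 and 160 CPM with the inhibitor. Both treated libraries lay well above both controls, and the rise was 3.11-fold (log2 fold change 1.64 ± 0.07 SE, edgeR adjusted p = 1.6e-09). Tspan32 (ENSMUSG00000000244, chromosome 7, 143005046 to 143019644), a tetraspanin of blood cells, rose from 2.19 CPM in each control to 9.79 and 8.79 CPM. Its counts were 68 and 69 against 443 and 372, and the log2 fold change was 2.09 ± 0.19 (SE, edgeR adjusted p = 9.8e-07).

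The 2 genes with the largest called rises lie next to each other. Tspan32 ends 33.1 kb before Cd81 starts, on the same strand, and no gene of the table starts between them. The other adjacent members are Cd151 and Tspan4, 3.8 kb apart on the same chromosome, with Polr2l between them. Those 2 changed little and in parallel (log2 fold changes -0.33 and -0.39), and Polr2l was at -0.16 (not called).

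The DNA just before the start sites of these 5 genes is shown because they carried the largest well-counted changes. Each line gives 250 bases up to a start annotated by RefSeq on GRCm38.p6, read 5′ to 3′ on the gene's strand, which is the plus strand for all 5. Where a gene has several such windows, the first listed was taken. The Cd63 window precedes a start that lies inside the gene span given above, so it is an internal start of that model. The Cd81 window also ends inside its gene span, just past the first base at 143052739. Which start was used in these cells was not measured. Capitals mark matches, on either strand, to 7 short motifs: TCATGTG (the M-box of MITF and its relatives), TCACGTG (the E-box bound by TFEB and its relatives), TGANTCA (AP-1), GAGGAAG (PU.1), TGGAAA (NFAT), TGACGT (the cAMP response element core) and TATAAA (the TATA box).
Cd63 (chr10:128909095-128909344): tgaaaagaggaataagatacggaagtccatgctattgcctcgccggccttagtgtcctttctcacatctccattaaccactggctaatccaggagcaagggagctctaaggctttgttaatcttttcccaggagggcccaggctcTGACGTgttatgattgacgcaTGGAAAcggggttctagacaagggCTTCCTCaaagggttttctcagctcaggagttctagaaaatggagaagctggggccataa
Tspan7 (chrX:10484866-10485115): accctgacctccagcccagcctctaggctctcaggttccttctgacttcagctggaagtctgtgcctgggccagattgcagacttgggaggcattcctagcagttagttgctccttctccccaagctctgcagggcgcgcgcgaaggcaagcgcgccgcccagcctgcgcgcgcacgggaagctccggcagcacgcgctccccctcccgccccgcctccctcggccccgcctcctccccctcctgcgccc
Tspan10 (chr11:120442381-120442630): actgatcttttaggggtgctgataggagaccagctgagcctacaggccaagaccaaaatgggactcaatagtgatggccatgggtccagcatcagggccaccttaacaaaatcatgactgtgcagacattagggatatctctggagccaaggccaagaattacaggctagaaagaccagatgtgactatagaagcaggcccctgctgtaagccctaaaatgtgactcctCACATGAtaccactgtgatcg
Cd81 (chr7:143052500-143052749): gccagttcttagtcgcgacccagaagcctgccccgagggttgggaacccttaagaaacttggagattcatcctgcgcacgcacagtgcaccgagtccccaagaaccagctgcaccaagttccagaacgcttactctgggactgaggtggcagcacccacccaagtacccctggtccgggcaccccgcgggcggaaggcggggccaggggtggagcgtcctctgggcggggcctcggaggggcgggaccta
Tspan32 (chr7:143004796-143005045): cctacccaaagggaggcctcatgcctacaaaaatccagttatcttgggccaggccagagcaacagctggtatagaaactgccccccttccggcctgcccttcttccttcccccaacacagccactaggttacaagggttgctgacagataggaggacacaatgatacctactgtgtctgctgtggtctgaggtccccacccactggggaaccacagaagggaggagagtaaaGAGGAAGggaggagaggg

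Tspan10 held 1 M-box core, which starts 21 bases before the annotated start and reads CACATGA on the strand shown. Such a match occurs in 3.25% of all 32851 RefSeq windows of this length, and in 2 of the 33 windows of the 23 members. The other member with this match was Tspan3, which was called higher (0.48). Cd63 held 1 match each to the cAMP response element core, NFAT and PU.1, at 105, 84 and 60 bases before the start. Tspan32 held a PU.1 match 18 bases before the start. Matches to the PU.1 letters were found in 9 of the 33 member windows (27.3%) and in 10.6% of all windows. Neither Tspan7 nor Cd81 held any of the 7 motifs, and no member window held the AP-1 letters, which 6.75% of all windows hold. None of the marked matches overlaps another. A match describes letters and is no evidence of binding.

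**Figure D2:**
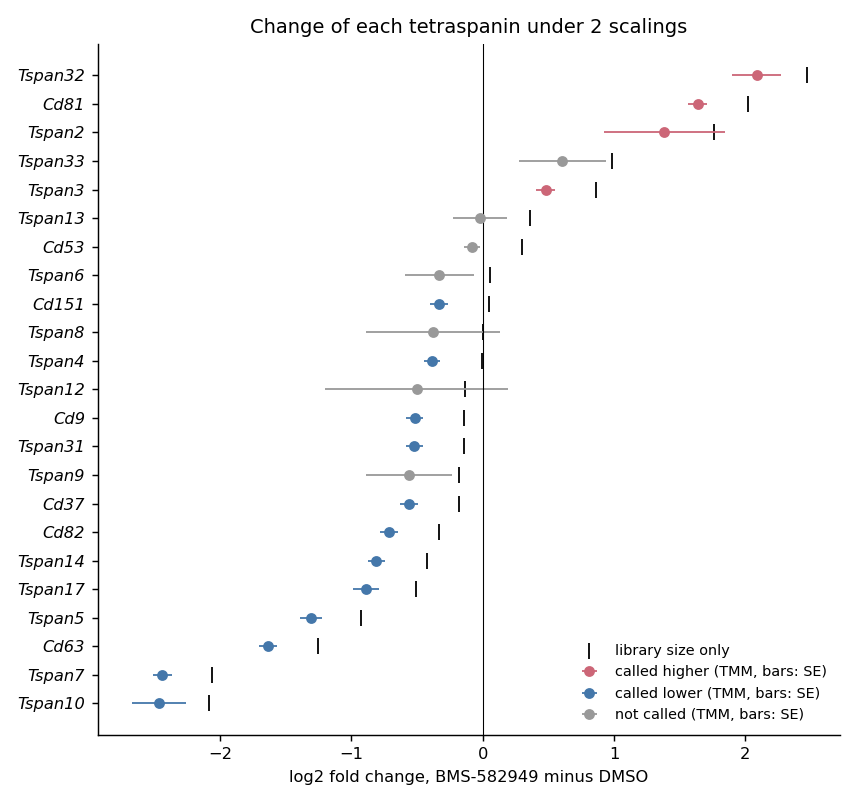
log2 fold change (BMS-582949 minus DMSO) of each member, with TMM scaling (points, coloured by call, bars are SE) and with library size only (black ticks). Each tick lies to the right of its point, and those of Cd151, Tspan6, Cd53 and Tspan13 lie above 0 where the point lies below.

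Among the members with CD names, Cd9 was the second most abundant after Cd63. It stood at 505 and 508 CPM with DMSO and 337 and 370 CPM with the inhibitor (log2 fold change -0.52 ± 0.07 SE, edgeR adjusted p = 2.1e-05), a call lost with library size only (-0.14, adjusted p = 0.060). Exons of Cd9 overlap an antisense model over 10.7% of their length, and whether counting used strand is not given in the sources used here. Cd82, known as a suppressor of metastasis, was at 238 and 261 CPM against 150 and 154 CPM (-0.71). Cd37, a leukocyte tetraspanin, was at 188 and 206 CPM against 127 and 140 CPM (-0.56). In each of these genes both treated libraries lay below both controls.

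Cd151, a partner of laminin-binding integrins, was called lower at -0.33 ± 0.07 (SE), from 122 and 121 CPM to 101 and 91.4 CPM. With library size only it was at 0.05 and not called. Cd53, also a leukocyte tetraspanin, was at 122 and 118 CPM against 110 and 116 CPM and was not called (-0.08, edgeR adjusted p = 0.28). With library size only it was called higher (0.30, adjusted p = 0.0010).

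Cd81 and Cd9 can be compared within each library, where no scaling enters. There were 0.0984 and 0.0949 Cd81 counts for each Cd9 count with DMSO, and 0.429 and 0.434 with BMS-582949, a 4.46-fold difference. Cd81 counts for each Cd63 count went from 0.0219 and 0.0214 to 0.203 and 0.215, a 9.65-fold difference. The ratios of the groups lay far apart beside the spread of their replicates. Pairs of members were picked with their values known, and with 2 libraries against 2 an exact two-sided permutation test cannot go below p = 0.333, so the ratios are given as a description.

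**Figure D3:**
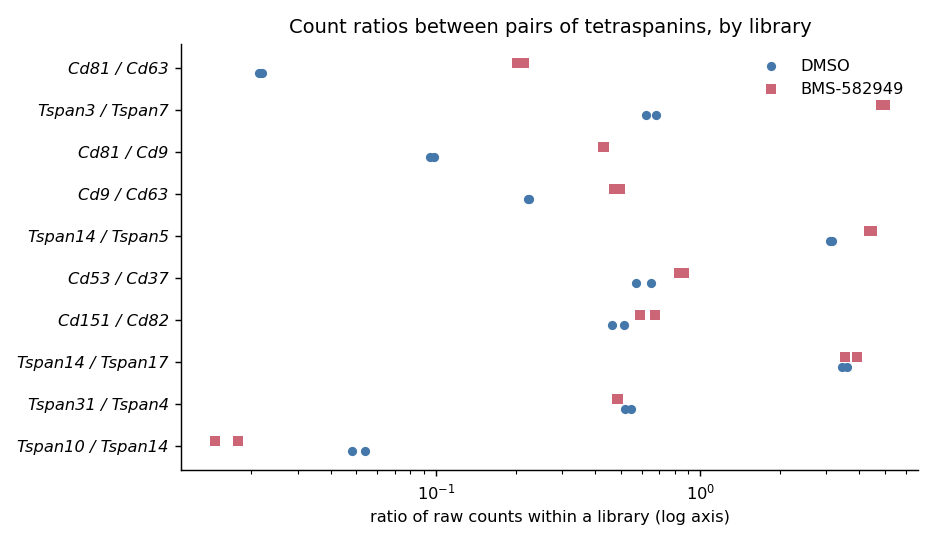
Ratio of raw counts between 10 pairs of tetraspanins in each library (log axis); circles are DMSO and squares BMS-582949 libraries. The groups lie farthest apart for Cd81 over Cd63 and for Tspan3 over Tspan7, and they overlap for Tspan14 over Tspan17.

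The TspanC8 members carry extra cysteines in their large extracellular loop and escort the protease ADAM10 to the cell surface. Of the 5 with enough counts, 4 were called lower and 1 was not called, with a median of -0.89. Among all tested genes, 29.7% were called lower. The TspanC8 fallers were the same in number with library size only. Tspan14, the most abundant, went from 190 and 202 CPM to 109 and 114 CPM (log2 fold change -0.81 ± 0.06 SE). Tspan5, which has been studied in osteoclast formation, went from 61.2 and 64.2 CPM to 25.1 and 25.6 CPM (-1.31 ± 0.08 SE, edgeR adjusted p = 3.7e-08). Tspan17 went from 52.9 and 58.5 CPM to 27.8 and 32.4 CPM (-0.89), and Tspan10 is described above.

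Tspan33, known from red cell precursors and B cells, was the exception among them. It was at 1.29 and 1.36 CPM with DMSO and 2.14 and 1.89 CPM with the inhibitor (0.61 ± 0.33 SE, edgeR adjusted p = 0.13). With library size only it was called higher (0.99, adjusted p = 0.020). Tspan15, the sixth TspanC8 gene, had 13 counts in all.

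Counts per kilobase of exon allow levels of different genes to be set side by side roughly. The length joins all annotated exons of a gene, and which transcripts were made was not measured. On this scale Tspan14 made up 61.2% and 60.2% of the TspanC8 counts with DMSO and 65.8% and 63.8% with BMS-582949. Tspan17 followed with 27.2% and 27.9%, then 26.8% and 28.9%. The share of Tspan10 went from 4.33% and 4.79% to 1.41% and 1.67%, and that of Tspan33 from 0.211% and 0.208% to 0.658% and 0.538%. Thus Tspan14 led in all 4 libraries and the ratio of Tspan14 to Tspan17 overlapped between groups (3.59 and 3.45 against 3.93 and 3.53 counts).

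**Figure D4:**
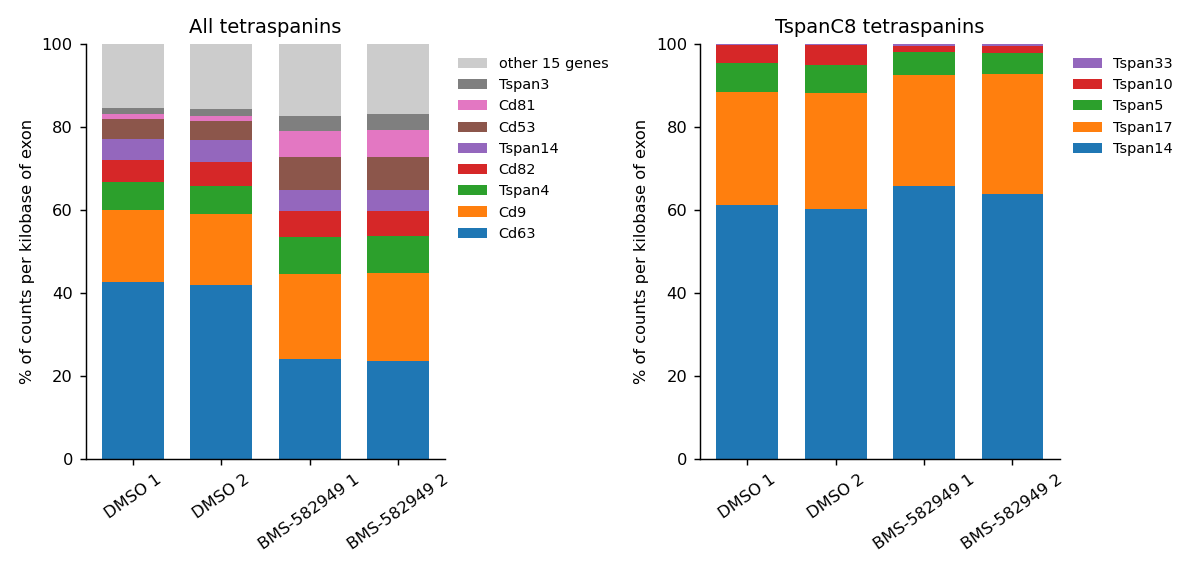
Share of tetraspanin counts per kilobase of exon taken by each gene in each library, for all 23 members (left) and for the TspanC8 members alone (right). Cd63 takes 42.8% and 42.0% with DMSO and 24.1% and 23.7% with BMS-582949, and Tspan14 leads the TspanC8 members in all 4 libraries.

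Across all 23 members the same scale gives the order of levels. In DMSO it ran from Cd63 (614 ± 0.995 CPM per kilobase, SD, n = 2) and Cd9 (248 ± 1.21) to Tspan4 (97.5 ± 1.90), Cd82 (83.0 ± 5.58) and Tspan14 (73.9 ± 3.12). With BMS-582949 the leaders were Cd63 (198 ± 6.17), Cd9 (173 ± 11.2), Tspan4 (74.6 ± 2.74), Cd53 (65.0 ± 2.34) and Cd81 (53.0 ± 3.87). Cd81 thus went from rank 13 to rank 5, while the first 3 places stayed with the same genes. In share of the family, Cd81 went from 1.20% and 1.15% to 6.24% and 6.53% and Tspan7 from 1.42% in each control to 0.455% and 0.462%. All 23 members together held 4377 and 4447 CPM with DMSO and 2257 and 2388 CPM with BMS-582949. Without Cd63 these sums were 2112 and 2187 against 1544 and 1643 CPM. The family's share of raw counts was 0.385% and 0.388%, then 0.260% and 0.270%.

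Among the remaining Tspan genes, Tspan3 rose and Tspan31 and Tspan4 fell relative to TMM. Tspan3 was at 90.0 and 99.7 CPM with DMSO and 125 and 139 CPM with the inhibitor (0.48 ± 0.07 SE, edgeR adjusted p = 1.2e-04). The ratio of Tspan3 to Tspan7 counts went from 0.621 and 0.682 to 4.85 and 5.00. In raw counts Tspan7 thus led in both controls and Tspan3 in both treated libraries. This crossing depends on exon length, which is greater for Tspan7. Per kilobase of exon Tspan3 already led in the controls, with 1.46% and 1.60% of the family against 1.42% in each for Tspan7.

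Tspan4, known for its part in migrasomes, the vesicles left behind by moving cells, was at 209 and 215 CPM against 158 and 167 CPM (-0.39). With library size only it was at -0.006 and not called. Its exons overlap those of Chid1, on the other strand, over 13.4% of their length, and Chid1 was called lower (-0.62). Tspan31 was at 115 and 112 CPM against 77.4 and 80.5 CPM (-0.52), and at -0.14 and not called with library size only. Exons of Tspan31 overlap Cdk4 on the other strand over 29.2% of their length, and Cdk4, a cell cycle kinase gene, was not called (-0.02, 256 and 247 CPM against 247 and 250 CPM). Reads of such overlapping genes cannot be told apart without strand, so both Tspan values are uncertain.

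The scarce members gave little that could be called. Tspan2, known from myelinating cells, had 16 and 14 counts with DMSO and 60 and 50 with BMS-582949, and was called higher (1.38 ± 0.46 SE, edgeR adjusted p = 0.021). Both treated libraries exceeded both controls, but the call ended without any 1 of the 4 libraries (adjusted p from 0.055 to 0.12) and with DESeq2 (adjusted p = 0.059). Tspan13, which has been studied as a counterpart of Tspan5 in osteoclast formation, was at 4.09 and 4.94 CPM against 4.44 CPM in each treated library (-0.02 ± 0.21 SE). Its groups overlapped, and its sign differed between settings.

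Tspan6 was at 3.80 and 3.04 CPM against 3.07 and 2.36 CPM, and was not called. Tspan9, a platelet tetraspanin, had 100 and 96 counts against 65 and 119 counts, so the treated replicates differed by more than the groups did. It was not called (-0.56), and without BMS-582949 replicate 2 it was called lower (-1.14, edgeR adjusted p = 0.0064). Tspan8 and Tspan12, with 21 to 35 and 8 to 27 counts per library, overlapped between groups and were not called (SE of the log2 fold change 0.51 and 0.70). Tspan12 is known for its part in blood vessel growth in the retina.

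Markers of other cells that could carry tetraspanins were counted in the same libraries. The 9 stromal markers summed to 1009 and 935 CPM with DMSO and 677 and 674 CPM with the inhibitor. Of these, 6 of the 8 tested were called lower (2 with library size only). Among all 13214 tested genes, 29.7% were called lower (2240 genes with library size only). The 8 platelet and megakaryocyte markers summed to 34.1 and 30.1 CPM against 51.4 and 58.3 CPM, nearly all from Pf4. Endothelial (2.58 to 4.75 CPM), B cell (3.36 to 4.33 CPM), neutrophil (17.8 to 28.3 CPM), dendritic cell (1.70 to 3.38 CPM) and erythroid markers (0.997 to 2.12 CPM) were low in every library. T and NK cell and mast cell markers summed to at most 0.127 CPM, with Cd3e, Cd3g, Ncr1, Mcpt4, Tpsb2 and Fcer1a at 0 in all 4 libraries. Ly6g and Siglech were also at 0. The part of stromal cells or platelets in the tetraspanin values was not tested.

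Genes of proteins that tetraspanins work with were counted in the same way, and their counts are read against the 30.5% of all genes called higher and 29.7% called lower. All 7 membrane ADAM proteases were called higher (median 0.84), also with library size only, while DESeq2 called 6 of the 7 higher. Adam10, the client of the TspanC8 members, was at 70.2 and 69.2 CPM with DMSO and 127 and 122 CPM with the inhibitor (0.84 ± 0.06 SE, edgeR adjusted p = 2.0e-07). So Adam10 lay higher in both treated libraries while 4 of its 5 measured escorts lay lower. Adam8 (2.83-fold), Adam15 (2.12-fold) and Adam17 (1.98-fold), another major sheddase, rose most. Of the exon length of Adam15, 20.6% is shared with another gene model.

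Of 11 tested partner proteins, 4 rose and 2 fell (median -0.01), a share near that of all genes (60.2% called). Igsf8, the immunoglobulin protein that binds CD9 and CD81 directly, went from 87.5 and 90.1 CPM to 142 and 158 CPM (0.76 ± 0.07 SE). Itga6, a laminin-binding integrin chain that pairs with CD151, rose most, from 9.94 and 11.7 CPM to 48.8 and 38.3 CPM (2.01). Cd36, a scavenger receptor, rose by 0.57. Clec7a, the receptor dectin-1, which associates with CD37, fell by 0.45, and the integrin chain Itgb1 fell by 0.20. The call of Itgb1 ended with upper-quartile scaling (edgeR adjusted p = 0.069), without DMSO replicate 1 (0.051) and with BMS-582949 replicate 2 left out (0.062), and library size only called it higher (0.18, adjusted p = 0.022). With library size only 7 partners rose and none fell.

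Among 15 exosome and multivesicular body genes, 6 fell, 1 rose and 8 were not called (median -0.15). Sdcbp, which encodes syntenin and binds CD63, went from 682 and 638 CPM to 447 and 467 CPM (-0.53). Chmp4b, of the ESCRT machinery, changed by -0.71 and Stam2 by -0.53, while Rab27a rose by 1.07 from 45 and 26 counts to 97 and 111. The call of Rab27a ended in 2 of the 4 fits with a library left out, those lacking DMSO replicate 2 (0.72, edgeR adjusted p = 0.15) or BMS-582949 replicate 2 (0.89, adjusted p = 0.098). This balance depends on scaling, with 8 higher and 2 lower under library size only.

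Of 8 macrophage fusion genes, 6 fell and 1 rose (median -1.85). Ocstamp (-2.99), Dcstamp (-2.98) and Atp6v0d2 (-2.73) fell most, and the rise of Cd47 (0.15) was lost under 9 of 13 alternatives. Tm4sf19, of the L6 family, whose members resemble tetraspanins but are not part of them, went from 91.4 and 117 CPM to 10.6 and 7.35 CPM (-3.54 ± 0.16 SE). Of the tetraspanin relatives outside the naming rule, Rom1 was at 0.01 and not called, Upk1a had 24 counts in all, and Prph2 and Upk1b had none.

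**Figure D5:**
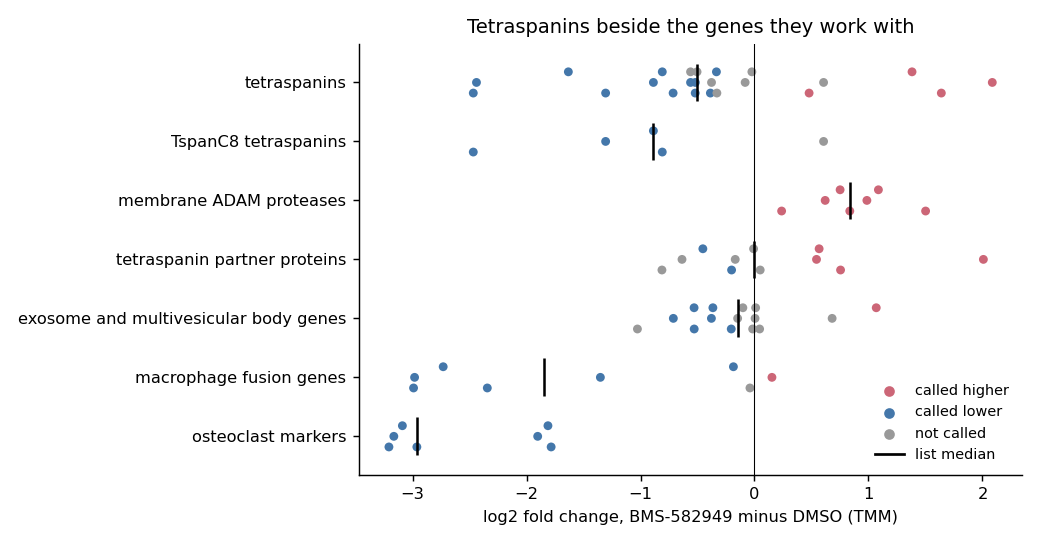
log2 fold change with TMM of tested genes in 7 lists, 1 point per gene coloured by call, with list medians as black lines. The 7 ADAM proteases all lie above 0, 4 of 5 TspanC8 members below it, and the tetraspanins as a whole on both sides.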

How the data were processed

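Trimmomatic 0.36, HISAT2 2.0.4 and DESeq2 1.30.1 are the tools, and GRCm38 the build, that the authors name per the submitters' processing notes, where no roles or order are seen. How reads were counted, by which annotation and with or without strand, is not given in the sources used here. Raw counts for each gene model were deposited by the authors, since all values are whole and column sums differ. Symbols, positions and union exon lengths came from GENCODE M21 on GRCm38, which matched 22022 of 22036 Ensembl identifiers. Promoter windows came from RefSeq (GRCm38.p6) and matched all 23 members.

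Counts were filtered with filterByExpr (minimum count 10) and scaled by TMM. They were tested in edgeR 4.0.16 under R 4.3.3 by quasi-likelihood without covariates (2 residual degrees of freedom). The fits were first run on simulated counts in which few genes changed. That run cannot judge the scaling here, where 60.2% of genes were called. Alternatives used DESeq2 1.42.0, limma 3.58.1, other scalings, filters and thresholds, the replicate number as a block, and omission of single libraries or of mitochondrially encoded genes. Every member is accounted for. From the gene lists, up to 3 called genes per direction with the largest change are named, with Adam10, Igsf8, Sdcbp, Dcstamp and Ocstamp. Members and lists were chosen with earlier results of these data known. Both replicate pairs were distinct libraries: their counts differed by more than sampling noise (chi-square divided by its degrees of freedom, 9.62 in the controls and 13.7 with the inhibitor).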

Additional observations from a re-analysis of the deposited data

How the results depend on the processing

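Of the 16 called members, 11 kept their direction and call under all 13 alternative fits, each called at an adjusted p under 0.05. The exceptions were Cd9, Tspan4, Tspan31 and Cd151 with library size only, and Tspan2 with DESeq2 and without each library in turn. Library size only gave a members' median of -0.13, 6738 higher and 2240 lower of all genes, 26 higher and 8 lower of the pathway-list genes, and 11 higher of the marker-list genes. Among the 10 macrophage markers it called 8 higher and 2 lower. The same setting turned the sign of Cd151 (0.048), Cd53 (0.30), Tspan6 (0.053) and Tspan13 (0.36), and upper-quartile scaling that of Tspan13 (0.037). Library size only moved the median of all genes from 0.03 to 0.41, and upper-quartile scaling moved it to 0.09. Requiring a log2 fold change of at least 1 left 4 members lower, and 1314 higher and 1499 lower of all genes. Leaving out 1 library at a time gave a members' median of -0.61 to -0.41, 3 members higher, 12 or 13 lower, and ranges of -0.72 to 0.051 for Tspan8, -0.15 to 0.12 for Tspan13 and -1.71 to 0.14 for Tspan12. With the replicate block, 4 members were higher and 12 lower, and 3923 and 3830 of all genes. The replicate numbers were not taken as pairing, since nothing in the labels says that they pair the samples. The deviations of same-numbered libraries correlated at -0.078 over genes. The members with the fewest counts, Tspan12 and Tspan8, had the largest standard errors among the 23 (0.70 and 0.51).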
